A study of Danio rerio with 16 samples.

Results

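The 768 peaks described here are intergenic ATAC-seq peaks that differed between haemogenic endothelium (HE) and aortic roof endothelium (ARE) and lay at most 10 kb from the transcription start site (TSS) of the nearest gene. They were taken from the 9466 differential peaks of both deposited lists by their HOMER annotation as intergenic and by the distance given with it, and made up 8.11% of all differential peaks and 12.9% of the intergenic ones. By the sign of the difference between the group means, 312 were HE-specific and 456 were ARE-specific.

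Cells were sorted at 28 to 30 hours post fertilization (hpf) from zebrafish embryos with 2 reporters, TgBAC(runx1P2:Citrine) and Tg(kdrl:mCherry), in which Citrine follows the runx1 P2 promoter and mCherry follows the endothelial gene kdrl. The 5 sorted populations were DN (neither reporter), SP-kdrl (mCherry only), DP-R1lo, DP-R1med and DP-R1hi (mCherry with low, medium or high Citrine), each with 3 replicates of 2000 to 3000 cells, beside 1 genomic DNA control. DP-R1hi stood for HE and DP-R1lo for ARE, and the values below are the authors' means over the 2 replicates that they kept of each. The labels give the embryos as wild type (Wt) and name no treatment, the gates were drawn on reporter protein rather than on runx1 itself, and the embryos of a sort were pooled.

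HE is the part of the floor of the dorsal aorta from which blood stem and progenitor cells emerge, whereas the roof of the same vessel keeps an arterial fate. Intergenic open chromatin close to a gene often holds enhancers, stretches of DNA at which transcription factors bind and raise the activity of a nearby promoter. ATAC-seq reads such open stretches through a transposase that inserts sequencing adapters into accessible DNA, so that more reads in a peak mean a more open region in the sorted cells.

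Openness is given throughout as the log2 of the mean normalised read number of a peak in a group, and the difference is DP-R1hi minus DP-R1lo. The lists hold 1 mean per group and no values per replicate, so that no test across replicates could be made and no SD is given. Every peak in the lists had already passed the authors' comparison and a difference beyond 0.7 in either direction, hence a called difference is not in itself a result here. In a bulk sample, a region open in fewer cells and a region less open in each cell cannot be told apart. Nearest gene is a statement of distance, and no peak was linked to the expression of its gene.

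The share of HE-specific peaks among the 768 was 40.6% (95% Wilson interval 37.2 to 44.1), next to 40.8% among all 9466 differential peaks, of which the remaining 59.2% were ARE-specific. The proximal intergenic peaks thus divided between the populations as the lists did. HE-specific peaks had a median level of 6.65 in DP-R1hi and 4.15 in DP-R1lo, with a median difference in size of 2.645 (95% order-statistic interval 2.32 to 2.85). ARE-specific peaks had a median level of 5.93 in DP-R1lo and 2.175 in DP-R1hi, with a median difference in size of 3.65 (3.31 to 3.99). These intervals cover counting over peaks only, and neither the spread of single peaks nor that of replicates. The quartiles of the difference in size were 1.57 and 4.1 for HE-specific and 2.14 and 4.9 for ARE-specific peaks.

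The less open group was often at the bottom of the scale. In 53 HE-specific peaks (17%) DP-R1lo was at its lowest listed value of -0.27, and in 163 ARE-specific peaks (35.7%) DP-R1hi was at its lowest listed value of -0.14. The lowest values equalled the sum of the next 2 steps on the linear scale (0.908 against 0.909 in DP-R1hi, 0.829 against 0.830 in DP-R1lo), as they would if each of 2 libraries held 1 read or was set to a minimum of 1. On either reading, the median open level of HE-specific peaks rested on about 221 reads over both libraries, less any that were subtracted for the genomic DNA, and that of ARE-specific peaks on about 147. The size of a difference against the lowest value is set by that floor, and without such peaks the median difference was 2.2 among HE-specific peaks and 2.55 in size among ARE-specific ones. At the other end, both groups were at 6 or above in 120 peaks (15.6%), 69 of them HE-specific and 51 ARE-specific, so that in these the region was open in both populations to an unequal degree.

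**Figure D1:**
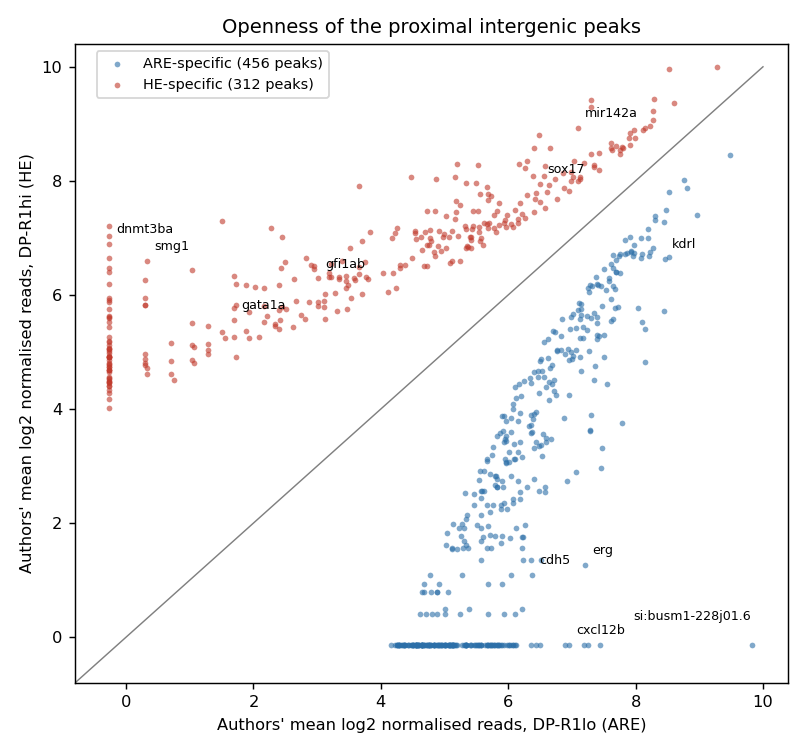
Mean log2 normalised reads in DP-R1lo (x axis) and DP-R1hi (y axis) for each of the 768 proximal intergenic peaks, 312 HE-specific (red) and 456 ARE-specific (blue), with the line of equal values. The vertical row at -0.27 holds 53 HE-specific peaks and the horizontal row at -0.14 holds 163 ARE-specific peaks, whereas kdrl, mir142a and sox17 lie in the part of the plot where both groups were open.

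The gene lists used here and below were chosen with earlier results of these data known. Genes of HE and of blood stem and progenitor cells lay next to 7 of the peaks, of which 6 were HE-specific, against 40.6% over all 768. The peak upstream of gfi1ab, a zinc finger repressor that silences endothelial genes in HE, was at 6.29 in DP-R1hi and 3.02 in DP-R1lo, a difference of 3.27. The peak of ikzf1, the lymphoid transcription factor Ikaros, was at 6.28 and 2.64, a difference of 3.64. Both were thus above the floor in ARE as well. The peak of lmo2, which encodes a bridging partner of the Scl and Gata factors, was at 7.15 and 5.43, a difference of 1.72. That of runx3, a paralogue of runx1, was at 6.97 and 5.41, a difference of 1.56. The remaining HE-specific peaks of the group lay at csf3r, the granulocyte colony-stimulating factor receptor, with a difference of 1.23, and at cebpb, a myeloid leucine zipper factor, with 1.1. The exception was the peak of ldb1a, an adaptor of LIM domain proteins, at -0.14 in DP-R1hi and 4.37 in DP-R1lo, a difference of -4.51. Of the 55 other differential peaks of the list, outside the proximal intergenic set, 34 were HE-specific and 21 ARE-specific.

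A list of 12 genes, made up of the dnmt3 genes and others of the Runx1 targets that the study named, had 6 peaks. All 6 were HE-specific, against 40.6% over the 768, with a median difference of 2.815. Of the 7 other differential peaks of the list, 4 were HE-specific and 3 ARE-specific. The list came from the same study, holds part of the targets named there and is no independent evidence of this direction. dnmt3ba, which encodes a de novo DNA methyltransferase, had 2 of the 6 proximal intergenic peaks. The peak at chr8:23327596-23328148 (GRCz10), 7153 bp upstream of the TSS, was at 6.89 in DP-R1hi and -0.27 in DP-R1lo, and the peak at chr8:23331936-23332420, 2847 bp upstream, was at 6.65 and -0.27. In both, ARE was at the lowest listed value, so that the differences of 7.16 and 6.92 depend on the floor. dnmt3aa, another de novo methyltransferase, also had 2 HE-specific peaks, but these were above the floor in both populations. The one at chr20:47127880-47128402 was at 7.38 in DP-R1hi and 5.02 in DP-R1lo, a difference of 2.36, and that at chr20:47129948-47130631 was at 6.82 and 5.41, a difference of 1.41. The peak of angpt1, the ligand of the endothelial receptor Tie2, was at 6.59 and 5.11, a difference of 1.48, and that of gfi1ab is given above. Of the named targets outside the list, which were looked at after the values had been seen, pdxka, a kinase of vitamin B6, and zgc:92791, psmb10 in the RefSeq table and a proteasome subunit, had 1 HE-specific peak each with differences of 2.79 and 2.85.

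Genes of primitive red blood cells lay next to 7 peaks, and each of the 7 was HE-specific, against 40.6% over the 768. The peak of gata1a, the erythroid master regulator, was at 5.56 in DP-R1hi and 1.70 in DP-R1lo, a difference of 3.86. The peaks of klf1, an erythroid zinc finger factor, of hbae3, an embryonic alpha globin, and of epor, the erythropoietin receptor, differed by 2.21, 2.15 and 1.63. tfr1a, the transferrin receptor that takes up iron, had 2 peaks with differences of 2.2 and 1.34, and the peak of sptb, the red cell spectrin, had the smallest difference of 1.05. Summed over the 7 peaks, the normalised reads were 1114 in DP-R1hi and 352 in DP-R1lo, and neither population was at its lowest value in any of them. The levels ranged from 5.56 to 8.06 in DP-R1hi and from 1.70 to 7.01 in DP-R1lo, and 20 of the 23 other differential peaks of the list were HE-specific too. Both populations were gated on kdrl:mCherry, and the paper describes long-lasting Citrine protein in primitive red blood cells too. The part of erythroid cells in the HE-specific peaks of blood genes was not tested. The 24 genes of the macrophage and neutrophil list had none of the 768 peaks, and of its 21 other differential peaks 7 were HE-specific and 14 ARE-specific. The peaks of the myeloid genes csf3r and cebpb are counted above with the genes of HE and blood stem cells.

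Endothelial and arterial genes showed the opposite picture: 22 of their 23 peaks were ARE-specific, with a median difference of -4.98, beside 59.4% ARE-specific and a median of -1.71 over the 768. In 11 of them DP-R1hi had no level above the floor. Of the 151 other differential peaks of the list, 125 were ARE-specific and 26 HE-specific. The peak of cxcl12b, a chemokine expressed by the arterial endothelium, was at -0.14 in DP-R1hi and 6.95 in DP-R1lo. The peak of smad6a, an inhibitor of BMP signalling, was at -0.14 and 6.36, and that of s1pr1, a sphingosine-1-phosphate receptor that stabilises vessels, at -0.14 and 5.98. These were the largest differences of the group, -7.09, -6.50 and -6.12, and each depends on the floor. Further peaks at the lowest value in DP-R1hi belonged to notch3, a Notch receptor (-5.83), dusp5, an ERK phosphatase of the vasculature (-5.48), mef2cb, a MADS box factor (-5.48), and aplnrb, an Apelin receptor (-4.98).

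Among endothelial peaks whose level in HE was above the floor, that of erg, an ETS factor that maintains endothelial identity, was at 1.27 in DP-R1hi and 7.20 in DP-R1lo. Its difference of -5.93 was the largest of the 456 ARE-specific peaks above the floor. A neighbouring peak of erg, 2484 bp upstream, was at -0.14 and 4.93. The peak of cdh5, which encodes the adherens junction protein VE-cadherin, was at 1.09 and 6.38, a difference of -5.29. Both erg and cdh5 thus had a proximal region that was wide open in ARE and close to the floor in HE. The endothelial genes that follow were chosen after their values had been seen. hey1, a Notch target, had 2 ARE-specific peaks with differences of -2.98 and -2.49. klf2a, a flow-responsive factor, was at 6.74 in DP-R1hi and 7.87 in DP-R1lo, a difference of -1.13, and aplnra differed by -1.17. The peak of kdrl, the main VEGF receptor of zebrafish endothelium, was at 6.63 and 8.46, a difference of -1.83. It was 2216 bp wide, and since the embryos carry a kdrl-driven transgene, reads of the transgene and of the gene cannot be told apart where both hold the same sequence. sox17, an endodermal and endothelial SOX factor, had the single HE-specific peak of the list, at 7.94 in DP-R1hi and 6.50 in DP-R1lo, a difference of 1.44.

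cx39.4, which the RefSeq table names gja4, a gap junction protein, was next to 4 ARE-specific peaks, as many as any gene had. They lay 2576, 3936, 5649 and 9226 bp downstream of its TSS. The outer 2 were at the lowest value in DP-R1hi and at 5.72 and 5.73 in DP-R1lo, whereas the peak at 3936 bp was at 4.43 and 7.55 and that at 5649 bp at 2.67 and 5.79. The differences were thus -3.12 for both inner peaks and -5.86 and -5.87 for the outer ones. The 4 peaks share a nearest gene and are not replicates of each other.

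Genes of veins and lymphatics had 7 peaks at 6 genes, all ARE-specific, with a median difference of -3.41. Over the 768, 59.4% were ARE-specific and the median was -1.71. Of the 41 other differential peaks of the list, 35 were ARE-specific and 6 HE-specific. flt4, the VEGF-C receptor, was at -0.14 in DP-R1hi and 5.15 in DP-R1lo. stab2, a scavenger receptor of venous endothelium, was at 1.35 and 6.51, a difference of -5.16. The peaks of nr2f1a and nr2f1b, orphan nuclear receptors, differed by -3.64 and -3.41, that of osr1, a zinc finger factor which the pronephros list holds as well, by -2.45, and those of ephb4b, the venous ephrin receptor, by -1.30 and -1.22. The differential proximal peaks of the venous list, and all but that of sox17 in the endothelial and arterial list, were less open in HE. The part of venous cells in DP-R1lo was not tested.

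**Figure D2:**
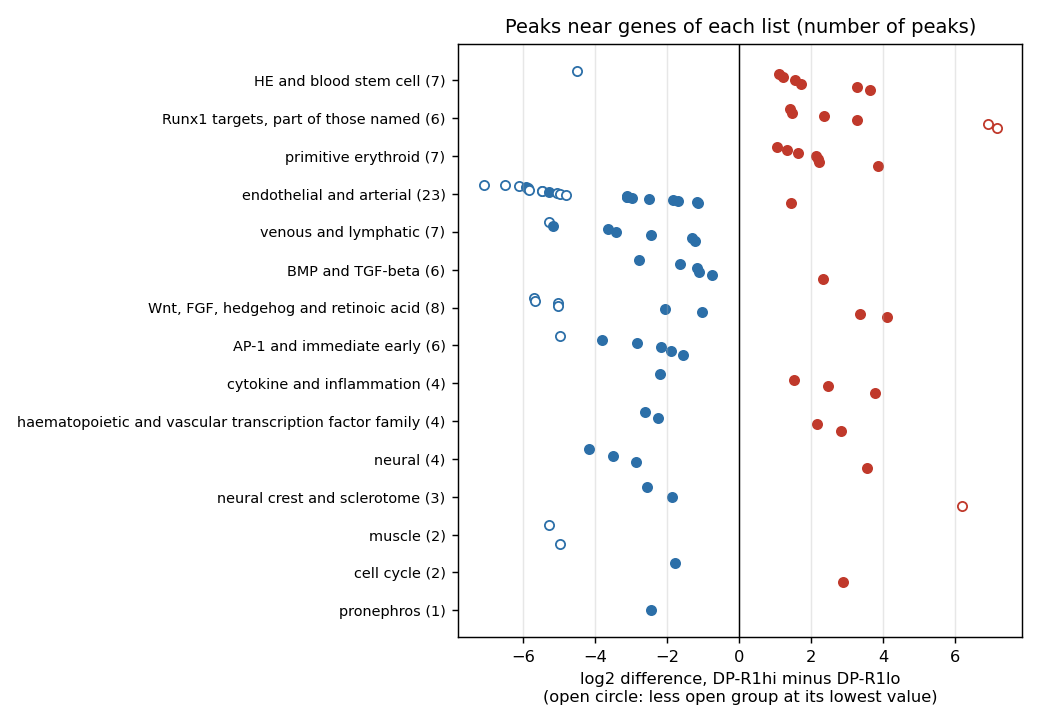
Difference in openness (DP-R1hi minus DP-R1lo, log2) for each proximal intergenic peak next to a gene of each list, with the number of peaks in brackets. Filled circles have both groups above the lowest value and open circles have the less open group at it. HE-specific peaks (red) make up 6 of 7, 6 of 6 and 7 of 7 in the upper 3 lists and 1 of 23 and 0 of 7 in the endothelial and venous lists. Over the 768, 40.6% were HE-specific. The lists were chosen with earlier results of these data known.

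In the BMP and TGF-beta list, 5 of 6 peaks were ARE-specific, beside 59.4% over the 768, but 4 of these belonged to id1, a BMP target that keeps bHLH factors from binding DNA. The id1 peaks lay on both sides of the TSS. Those at chr11:18544318-18544820 and chr11:18545069-18545637 were open in both populations, at 6.75 and 6.72 in DP-R1hi and at 7.93 and 7.84 in DP-R1lo. The peak farthest upstream, at chr11:18546105-18546520, was at 3.60 and 6.37, a difference of -2.77, and the downstream peak at chr11:18540030-18541012 was at 5.42 and 7.07, a difference of -1.65. id3 had 1 ARE-specific peak, at 8.02 and 8.76, with a difference of -0.74 close to the authors' limit. The HE-specific peak of the list lay at bmp10, a BMP ligand, at 7.57 in DP-R1hi and 5.25 in DP-R1lo, a difference of 2.32. Of the 63 other differential peaks of the list, 49 were ARE-specific and 14 HE-specific.

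Of 8 peaks near Wnt, FGF, hedgehog and retinoic acid genes, 6 were ARE-specific and 2 HE-specific, beside 59.4% ARE-specific over the 768. Of the 117 other differential peaks of the list, 92 were ARE-specific and 25 HE-specific. DP-R1hi was at the lowest value next to the ligand gene fgf18a (-5.71), the Wnt target axin2 (-5.68), the hedgehog effector gli2a (-5.04) and the receptor gene fgfr2 (-5.02). rarga, a retinoic acid receptor, and lef1, the nuclear Wnt effector, were above the floor in both populations, with differences of -2.07 and -1.04. The HE-specific peaks were those of the ligand gene wnt9a, at 5.83 in DP-R1hi and 1.73 in DP-R1lo, and of cyp26a1, the enzyme that breaks down retinoic acid, at 5.53 and 2.16. wnt9a and cyp26a1 thus stood on the other side of their group by 4.1 and 3.37.

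The 6 peaks near AP-1 and immediate early genes belonged to 4 genes and were all ARE-specific, with a median difference of -2.51 beside 59.4% and -1.71 over the 768. Of the 26 other differential peaks of this list, 18 were ARE-specific and 8 HE-specific. klf6a, a Krüppel-like factor, had one at -0.14 in DP-R1hi and 4.84 in DP-R1lo and another at 1.56 and 5.37. The other 4 lay at ier5, with differences of -2.84 and -1.56, junba (-2.18) and atf3 (-1.90), which encode an early response protein and 2 leucine zipper factors. Of 4 peaks near cytokine and inflammation genes, those of the Toll-like receptor gene tlr2 (3.77), the prostaglandin E2 receptor gene ptger4b (2.48) and the interferon regulatory factor gene irf2 (1.52) were HE-specific. The peak of nfkbiab, the inhibitor of NF-kappaB, was ARE-specific (-2.20). Over the 768, 40.6% were HE-specific, and the 33 other differential peaks of the cytokine list were 18 HE-specific and 15 ARE-specific. Of the 2 cell cycle peaks, that of ccnd2b, a D-type cyclin, was HE-specific (2.90) and that of myca, a MYC factor, ARE-specific (-1.79).

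Within the families of transcription factors known in blood and vessels, ef1, named elf1 in the RefSeq table and an ETS factor, had 2 HE-specific peaks. They were at 5.44 and 6.47 in DP-R1hi and at 2.62 and 4.30 in DP-R1lo. etv4, another ETS factor, and tbx3a, a T-box factor, had 1 ARE-specific peak each, with differences of -2.25 and -2.61. With file symbols alone, ef1 was not in the list and its HE-specific count was 0.

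Markers of tissues other than endothelium and blood had few of the 768 peaks, of which 59.4% were ARE-specific. Their lists had more differential peaks outside the proximal intergenic set. These were 29 HE-specific and 37 ARE-specific for the neural list, and 6 and 11 for muscle. For neural crest and sclerotome they were 5 and 27, and for the pronephros 13 and 9. The 1 proximal peak of the pronephros list is that of osr1, given above. Of the muscle list, meox1 (-5.27) and myog (-4.98), a somite homeobox factor and a myogenic bHLH factor, had 1 peak each with DP-R1hi at its lowest value. Of the neural list, neurod4 (-4.17), sox19b (-3.49) and her4.2 (-2.85) had ARE-specific peaks and nkx6.1, a homeobox factor of the ventral neural tube, an HE-specific one (3.56). pdgfra, a receptor of mesenchyme, had an ARE-specific peak (-1.86). The neighbourhood of twist1b, a bHLH factor of mesenchyme and neural crest, held an HE-specific peak at 5.92 in DP-R1hi and -0.27 in DP-R1lo and an ARE-specific one at 3.2 and 5.75. The part of such tissues in either population was not tested.

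Where DP-R1lo was above its floor, the largest HE-specific differences lay outside these lists. The peak of smg1, a kinase of nonsense-mediated mRNA decay, led with 6.6 in DP-R1hi and 0.33 in DP-R1lo, a difference of 6.27. It was followed by aldh3a2b, a fatty aldehyde dehydrogenase (5.97), zgc:172253 (5.78), rpl5a, a protein of the large ribosomal subunit (5.65), oaz1a, the inhibitor of ornithine decarboxylase (5.53), and plgrkt, a plasminogen receptor (5.53). Several of these were 1 step above the floor, with DP-R1lo at 0.30 or 0.33. The rest of the 12 were grap2a, an adaptor of T cell signalling (5.41), ssb, the RNA-binding La protein (4.89), mccc1, a carboxylase of leucine breakdown (4.66), zgc:194392 (4.64), tyms, the thymidylate synthase (4.58), and spic, an ETS factor of macrophages in the mouse (4.57). The peak of spic was at 7.02 and 2.45, so that its difference rested on more reads in ARE than most of the others. With DP-R1lo at its floor, the largest differences were those of zfp36l1a, an mRNA decay factor (7.48), spdya, a cell cycle activator (7.31), and the upstream dnmt3ba peak.

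The largest ARE-specific differences above the floor included vascular genes. After erg came stm, an otolith protein (-5.73), tcf12, a bHLH factor (-5.71), cdh6, a cadherin (-5.54), cdh5, rnf141, a RING finger protein (-5.29), and stab2. The list went on with nrarpa, a feedback inhibitor of Notch (-5.01), tm4sf18, a tetraspanin-like gene of vessel sprouts (-4.98), hoxd3a, a homeobox factor (-4.96), zgc:77752 (-4.89) and veph1 (-4.89). nrarpa was at 1.35 in DP-R1hi and 6.36 in DP-R1lo. With DP-R1hi at its floor, the largest differences were those of si:busm1-228j01.6, mir-184-1 and npm2, a nucleoplasmin of the egg, at -9.96, -7.58 and -7.39. The peak next to si:busm1-228j01.6, which the RefSeq table names mhc2d8.45b1, was at -0.14 in DP-R1hi and 9.82 in DP-R1lo, the highest level of any of the 768 in DP-R1lo, and was 8817 bp wide. No other peak of the set but that of kdrl was wider than 2 kb.

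Most of the peaks lay upstream of their gene, 634 of 768 (82.6%, interval 79.7 to 85.1), or 84.0% in the HE-specific set and 81.6% in the ARE-specific set. Part of this follows from the annotation, since a peak downstream of a TSS is intergenic when the gene is short enough to end before it. Of the 84 peaks within 2 kb, 83 were upstream. The median distance was 5279.5 bp for HE-specific (4636 to 5830) and 5192.5 bp for ARE-specific peaks (4804 to 5670), and their median widths were 488.5 and 486 bp. The intervals of both directions overlapped in position and in width.

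**Figure D3:**
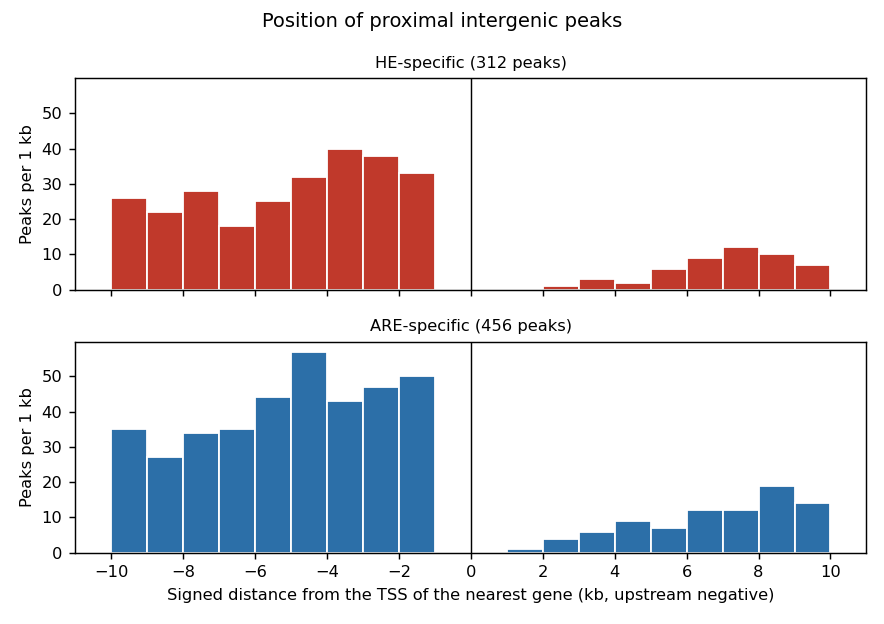
Number of proximal intergenic peaks per 1 kb of signed distance from the TSS of the nearest gene, for 312 HE-specific (upper) and 456 ARE-specific peaks (lower). In both, most peaks are upstream (84.0% and 81.6%). Around 0 is a gap, where peaks carry a promoter annotation or, downstream, mostly one within the gene.

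The share of HE-specific peaks changed little with distance, from 39.3% within 2 kb (33 of 84) to 41.1% between 2 and 5 kb (116 of 282) and 40.5% between 5 and 10 kb (163 of 402). The median HE-specific difference was 2.31, 2.435 and 2.67 in these bins, and the median ARE-specific difference in size was 3.73, 3.35 and 3.74, with overlapping intervals. The HE-specific peaks closest to a TSS were those of mir142a, a microRNA of blood cells, at 1041 bp, mir17a-2 at 1051 bp and irf2bp2a, a repressor gene, at 1072 bp. mir142a was at 8.93 in DP-R1hi and 7.09 in DP-R1lo, a difference of 1.84, and mir17a-2 and irf2bp2a differed by 0.99 and 0.97. Among the closest ARE-specific peaks were those of pvrl2l, a nectin-like adhesion gene, at 1015 bp (-2.70) and pim1, a kinase, at 1042 bp (-1.16). At the other limit, the last peaks inside 10 kb were those of dlx2b (9993 bp, -5.17) and si:busm1-228j01.6 (9985 bp, -9.96), and the first beyond it were those of matn4 (10022 bp, -6.71) and fam65a (10042 bp, -2.46).

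Compared with the other annotation classes, the proximal intergenic peaks were close to the distal ones and unlike promoters. HE-specific promoter peaks had a median difference of 1.19 (1.13 to 1.29) and ARE-specific ones a median size of 2.15 (1.93 to 2.50), both below the intervals of the proximal intergenic peaks. Intergenic peaks 10 to 50 kb from a TSS had medians of 2.81 (2.64 to 3.03) and 3.945 (3.81 to 4.12), and intronic peaks 2.86 (2.70 to 3.03) and 3.99 (3.82 to 4.16). The less open group was at its lowest value in 9.09% of promoter peaks (6.88 to 11.9), in 28.1% of proximal intergenic peaks (25.1 to 31.4) and in 30.1% of intergenic peaks 10 to 50 kb away (28.3 to 32.0). Both groups were at 6 or above in 45.3% of promoter peaks, against the 15.6% given above. Promoter peaks also held more reads. The HE-specific ones had median levels of 7.86 in DP-R1hi and 6.66 in DP-R1lo, and the ARE-specific ones 6.78 in DP-R1lo and 4.68 in DP-R1hi. Every peak had passed the authors' filter, and the part of read level and filter in the contrast with promoters was not tested. These comparisons are between sets of peaks of the same libraries, with no replicates behind them.

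**Figure D4:**
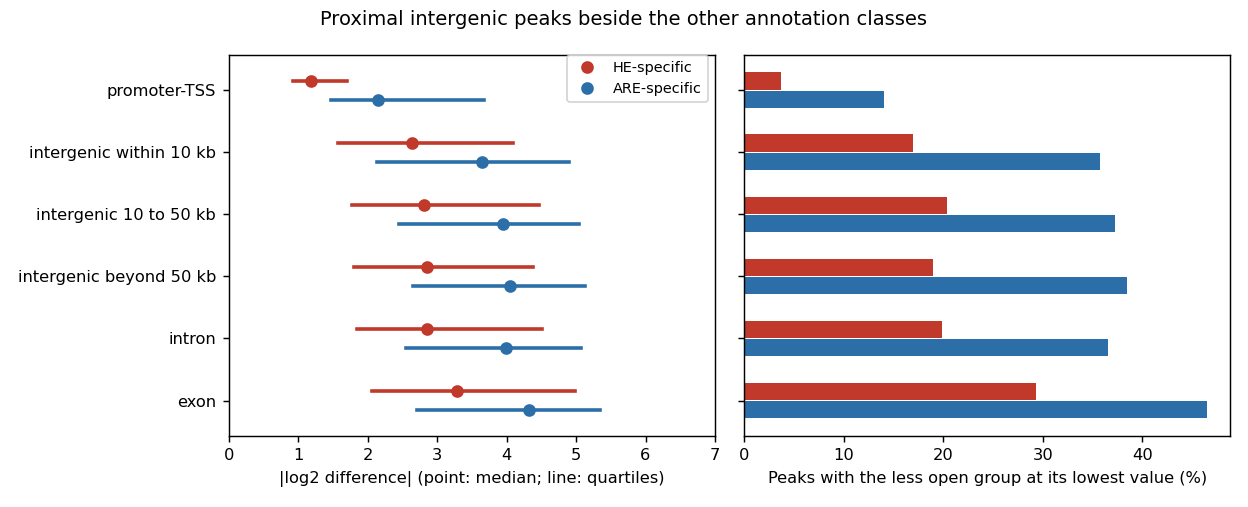
Left, median (point) and quartiles (line) of the size of the log2 difference, by annotation class and direction. Right, the share of peaks whose less open group was at its lowest value, in percent. Proximal intergenic peaks (within 10 kb) sit at 2.645 and 3.65, next to the distal intergenic and intronic peaks and above promoter peaks at 1.19 and 2.15.

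Where a gene had both a differential promoter peak and a proximal intergenic peak, the directions were the same in 35 of 40 genes, 24 of them ARE-specific at both and 11 HE-specific at both. The promoter was HE-specific in 11 of the 13 genes with an HE-specific proximal peak and in 3 of the 27 with an ARE-specific one. The larger difference was at the proximal peak in 22 of the 35, with medians in size of 3.01 at the proximal peak and 2.12 at the promoter. cdh5 differed by -5.29 at the proximal peak and by -2.12 at its promoter, which was at 5.93 in DP-R1hi and 8.05 in DP-R1lo. kdrl was the other way round, with -1.83 at the proximal peak and -6.40 at the promoter, and so was vsg1, named plvapb in the RefSeq table, a protein of endothelial fenestrae, with -1.69 and -7.85. DP-R1hi was at -0.14 at both promoters, so that these sizes depend on the floor, and the limit set by the kdrl transgene holds here too. On the HE side, epor differed by 1.63 and 1.37, mir142a by 1.84 and 2.02, and hbae3 by 2.15 and, with DP-R1lo at the floor of -0.27 at the promoter, 5.24. The 5 genes with opposite directions were grapa, ubtfl, oclna, ptpn13 and zgc:103697. At oclna, which encodes the tight junction protein occludin, the proximal peak was at 2.78 in DP-R1hi and 6.40 in DP-R1lo, whereas the promoter was at 6.67 and 5.12.

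**Figure D5:**
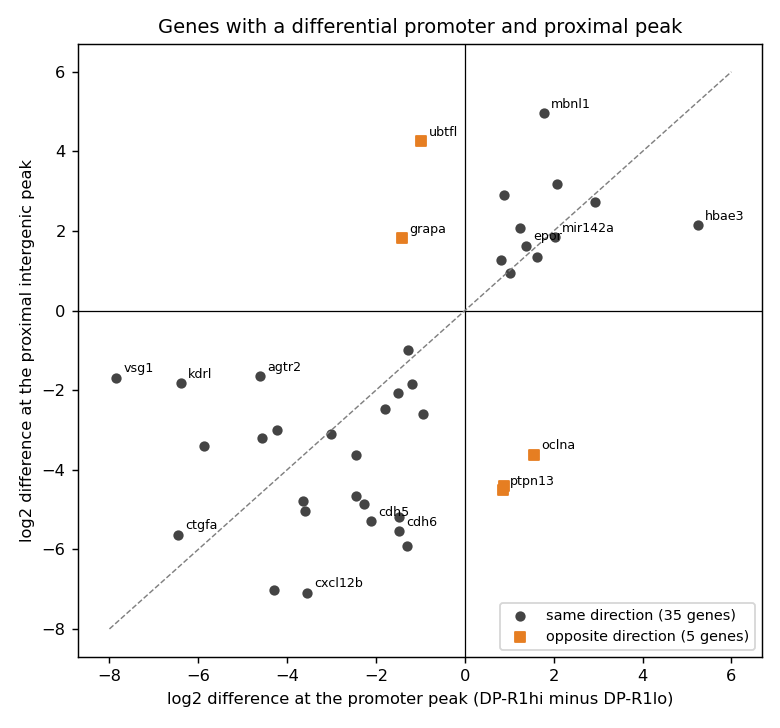
Difference at the promoter peak (x axis) against that at the proximal intergenic peak (y axis) of the same nearest gene, both DP-R1hi minus DP-R1lo on the log2 scale, for 40 genes. The 35 genes with the same direction (circles) lie in the lower left and upper right, 5 genes (squares) do not, and the dashed line marks equal differences.

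Of 84 genes with intronic and proximal intergenic peaks, each of 1 direction, the intronic ones were HE-specific in 9 of the 19 with an HE-specific proximal peak and in 15 of the 65 with an ARE-specific one. For distal intergenic peaks of the same nearest gene it was 44 of 77 and 30 of 141. Most genes are ARE-specific in both, as the lists are, so that a share with the same direction says little by itself, and peaks of 1 gene are not independent.

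The 768 peaks had 714 nearest genes, of which 665 had 1 peak, 46 had 2 and 3 had more. Of the 49 genes with several, 28 had ARE-specific peaks alone, 15 had HE-specific peaks alone and 6 had both. Beside id1 and cx39.4, the gene with more than 2 was zgc:163040, with 3 HE-specific peaks that were among the most open of the set, at 9.06, 8.62 and 8.57 in DP-R1hi. Their differences of 0.79, 0.93 and 0.77 were among the smallest. Peaks close to each other mostly had the same direction, in 16 of 17 neighbouring pairs at most 1 kb apart and in 48 of 53 at most 10 kb apart. With 59.4% of the 768 ARE-specific, many pairs would share a direction in any case, and neighbouring peaks are not independent.

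The exception within 1 kb was next to myoz1a, a sarcomere gene, where 296 bp separated an HE-specific peak at 5.27 in DP-R1hi and -0.27 in DP-R1lo from an ARE-specific peak at -0.14 and 5.19. Each population was thus at its floor in the peak of the other. At zgc:194392, an ARE-specific peak at -0.14 and 7.19 lay 2348 bp from the HE-specific peak named above, which was at 6.34 and 1.70. rhbdf1a, an inactive rhomboid protease gene, had an HE-specific peak at 7.12 and 4.53 and an ARE-specific peak at 3.16 and 6.21. zgc:158343 had one at 7.61 and 6.18 and another at -0.14 and 5.57. With twist1b, these were the genes in which the directions differed most, and the sixth was tbc1d13.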

How the data were processed

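ATAC-seq was performed on the sorted populations described above. As stated in the labels and methods, the authors trimmed reads with Trimmomatic 0.32, aligned them to the zebrafish genome Zv10 (GRCz10) with BWA 0.7.12, called peaks with MACS against genomic DNA, removed 1 outlying replicate of 3 of both DP-R1hi and DP-R1lo, compared the groups in DiffBind with edgeR and annotated peaks with HOMER 3.0. The number of peaks tested is not given in the sources used here. No shift of reads for the transposase is described there.

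The deposited lists have no header. Columns were identified from their values and from the paper's supplementary list of peaks specific to DP-R1hi or DP-R1lo. The deposited log2 values are mean concentrations of normalised reads in both groups, in DP-R1hi and in DP-R1lo. The first equalled the log2 mean of the other 2 within 0.01. The authors' own fold changes were not used. Library depths are unknown.

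The peaks and gene lists were chosen with earlier results of these data known. Named genes are the 12 largest differences per direction above the floor and 3 at it, members of the lists (12 largest where more), genes with at least 3 peaks, peaks nearest the TSS and the 10 kb limit, and 5 genes with both directions. 1 peak that the rule names is not reported here. The RefSeq accession of each nearest gene was looked up in a table of the GRCz12tu assembly for its current name (685 of 714 accessions, 739 of 768 peaks), and 38 peaks had no symbol in the files. The order-statistic intervals of medians were tested on simulated data. Promoter motifs and peak sequences were not analysed here, since no genome of the build was used. Alternatives varied the minimum difference, the distance, the treatment of floor values, 1 peak per gene and the merging of neighbours. The software was matplotlib 3.10.9, scipy 1.17.1, numpy 2.4.6 and pandas 2.3.3 under Python 3.11.15.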

Additional observations from a re-analysis of the deposited data

How the results depend on the processing

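No paired analysis was possible because single replicates have no values in the deposited tables, and for the same reason none could be left out. Of 76 combinations of a summary value and an alternative setting, 53 stayed within the interval of the reported value (counts within 1.5 times) and 23 moved. Each setting changed which peaks entered. The moves came with a minimum difference of 2, with the other distance limits and with floor values left out. With a difference of at least 2, there were 202 HE-specific peaks, 36.5% of the total, 39.0% were at the lowest value, the median differences were 3.575 and 4.43, and the median widths were 411.5 and 442.5 bp (HE-specific first, here and below). With a limit of 5 kb, there were 149 and 217 peaks, 92.9% upstream, at a median distance of 3112 and 3092 bp, and with 20 kb, 626 and 876 peaks, 73.2% upstream, at 10049 and 9715.5 bp. Without peaks at the lowest value, the count of ARE-specific peaks was 293, HE-specific peaks were 46.9%, the median differences were 2.2 and 2.55, and the median widths were 518 and 548 bp. Over all differential peaks the share without them was 46.9% as well, so that both shares moved together. With 1 peak per gene, and with peaks within 1 kb merged, none of the summary values moved. The settings for the gene lists were added after the data had been seen. There, 9 of 120 counts moved, of which that of ARE-specific endothelial peaks fell from 22 to 11 without peaks at the lowest value.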

Other observations

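MicroRNA genes were the nearest gene of 32 of the 768 peaks, 25 ARE-specific and 7 HE-specific, beside 59.4% and 40.6% over the 768. This group and the families below were picked after the data had been seen. Both mir142 genes, a microRNA known mainly from blood cells, had an HE-specific peak: mir142a was at 8.93 in DP-R1hi and 7.09 in DP-R1lo, and mir142b at 7.02 and 5.07, a difference of 1.95. mir23a-2 was HE-specific with 5.51 and 1.03, and mirlet7a-6 had 2 HE-specific peaks with differences of 3.75 and 1.88. mir126a, an endothelial microRNA, was at 4.90 and 6.62, a difference of -1.72. mir27b was at -0.14 and 5.74, mir130c-1 had 2 ARE-specific peaks at -6.16 and -3.01, and mir181c had 2 at -2.71 and -0.99. mir146a was at 6.75 and 8.22, a difference of -1.47. Among the 153 differential peaks near microRNA genes outside the proximal intergenic set, 78 were HE-specific and 75 ARE-specific.

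Hox genes had 12 proximal intergenic peaks, 11 of them ARE-specific, beside 59.4% over the 768, and in 7 of the 12 the less open group was at its lowest value. The 43 other differential peaks near hox genes were all ARE-specific, beside 59.2% over all differential peaks. In the hoxd cluster, hoxd3a had 2 ARE-specific peaks with differences of -5.15 and -4.96, and 2226 bp beyond the second lay the HE-specific exception, a peak of hoxd4a at 4.79 in DP-R1hi and -0.27 in DP-R1lo. On its other side, the peak of mir10b-1 was ARE-specific again, at 4.67 and 6.47. SOX genes had 6 peaks, 5 of them HE-specific, against 40.6% over the 768. The 5 were those of sox4b (2, at 1.50 and 1.39), sox17, sox32 (2.94) and sox12 (2.99). Of the 45 other differential peaks near SOX genes, 9 were HE-specific and 36 ARE-specific. Genes of ribosomal proteins had 8 peaks, of which 6 were HE-specific, against 40.6% over the 768. Of these, rps24 (5.40) and 1 of the rpl5a peaks (5.19) were at the floor of DP-R1lo. The peaks of rps4x (-2.58) and rps28 (-2.25) were ARE-specific. The 34 other differential peaks near ribosomal protein genes were 17 HE-specific and 17 ARE-specific. tal2, a bHLH gene related to tal1, had an HE-specific peak on each side of its TSS, at 8.26 and 8.06 in DP-R1hi and at 6.57 and 5.17 in DP-R1lo.

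The low values also bear on the replicates. Below a level of 1.55 in DP-R1hi, all 2639 values of ARE-specific peaks in the whole series matched whole reads in 2 libraries within 0.015. The worth of 1 read was derived from the lowest levels themselves, so that values at these levels match by construction. The lowest value alone made up 2049 of the 2639. Of the 416 that stood for 4 to 6 reads in total, 390 matched 1 read in one library and the rest in the other, and 26 matched more than 1 read in both. In DP-R1lo, 1029 of 1029 values up to 1.36 matched, 725 of them at the lowest value, and of 221 with 4 to 6 reads 201 were of the uneven kind. Among the proximal intergenic peaks, 21 of 21 values in DP-R1hi and 13 of 14 in DP-R1lo were uneven. Peaks were called against genomic DNA, and whether the lowest value is a read or a minimum set after a subtraction of that control is not given in the sources used here. Which library held the reads is not known from the means, and why they were so uneven was not tested.

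The share of a chromosome's differential peaks that were proximal and intergenic ranged from 4.64% on chromosome 24 (14 of 302) to 11.1% on chromosome 19 (38 of 342).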
